A study of Mus musculus with 20 samples.

Results

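Interferon-stimulated genes are the transcripts that cells turn on when interferon binds its receptors. A listed set of 41 such genes was followed through mouse liver on 2 diets, with and without treadmill exercise, and in liver tumours. The set was taken as listed, and each gene was found in the count files by its identifier and mouse symbol. It makes up 41 of the 55359 gene identifiers counted, and all 41 passed the filter on low counts that left 14428 genes for testing.

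Type I interferons signal through a complex that includes STAT2 and IRF9 and binds a response element in the promoters of antiviral genes. Interferon gamma acts through another element, known as GAS, and induces IRF1 and guanylate-binding and immunity-related GTPases. In liver these genes are known from viral hepatitis, and also from fatty liver disease, where hepatocytes, Kupffer cells and incoming monocytes can all express them.

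Polyadenylated RNA of 20 frozen liver samples had been sequenced, 4 libraries in each of 5 groups, from male wild-type mice of a strain spelled C56BL/6, at 35 weeks of age. Exercised mice given a diet with 60 kcal% fat supplied tumour pieces and non-tumour pieces, non-exercised mice on the same high-fat diet supplied both as well, and mice on a normal diet with 12 kcal% fat, which did not exercise, supplied liver. By the protocol every pup received the carcinogen DMBA on its skin (0.5%, 50 µL, postnatal day 4 to 5), so the normal-diet mice are not untreated animals. The high-fat arms were split at 20 weeks. Treadmill training began at 10 m/min, and the final 10 weeks were run at 18 m/min, in sessions of 20 min, 5 times weekly. Both high-fat arms were killed on 1 day within 2 h of the last run. The sampling day of the normal-diet mice is not given, so that diet and sampling day cannot be told apart. The high-fat mice also bore tumours, while the labels of the normal-diet mice name none. Diet and tumour bearing therefore cannot be told apart either. Tumour and non-tumour pieces that carry 1 mouse number within an arm were read as pieces of the same mouse. Nothing else in the labels describes how replicates were kept apart, and p-values measure the spread between these libraries.

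Total counts per library were 16471378 to 20271948, and a level of 1 CPM, the count scaled to a common library size, stood for 15.7 to 21.5 counts. The markers of hepatocytes were high in every library, with a summed level of at least 50578 CPM, as the tissue label has it. Normal-diet library 2 differed more from the other 3 of its group (chi-square per gene 46.1 to 50.0) than those did from each other (9.16 to 12.1). Non-exercised mouse 3 stood apart in both of its pieces by markers of T and NK cells and of neutrophils. The 9 T and NK cell markers summed to 14.1 CPM in its tumour piece and 15.2 CPM in its non-tumour piece, against 2.72 to 5.94 CPM in the other 6 high-fat libraries of non-exercised mice. The 5 neutrophil markers summed to 39.8 CPM and 49.6 CPM in these pieces, against 4.41 to 7.96 CPM in the other 6. Results that turn on these libraries are given with and without them. In whole tissue, fewer cells of a type and less RNA per cell cannot be told apart.

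Promoters of such genes can carry the sequences through which interferon acts, and 6 promoters are shown, from RefSeq on the GRCm38.p6 build, each window running from 250 bases before a transcript start to 50 bases after it. The first 4 belong to the genes with the smallest p on the high-fat diet among those with a match to the response element, searched as GAAANNGAAA on both strands (TTTCNNTTTC on the other). The last pair, of Xaf1 and Samd9l, had small p values but no match to either motif. Capitals mark every match, including the GAS motif TTCNNNGAA in Oas1a.
Trim30a, chr7:104465144-104465443, minus strand: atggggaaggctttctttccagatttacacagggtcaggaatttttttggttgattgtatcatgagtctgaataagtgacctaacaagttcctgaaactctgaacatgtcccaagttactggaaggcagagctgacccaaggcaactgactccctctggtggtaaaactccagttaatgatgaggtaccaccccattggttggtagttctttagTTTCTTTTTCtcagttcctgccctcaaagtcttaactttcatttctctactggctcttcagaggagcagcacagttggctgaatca
Gbp3, chr3:142559794-142560093, plus strand: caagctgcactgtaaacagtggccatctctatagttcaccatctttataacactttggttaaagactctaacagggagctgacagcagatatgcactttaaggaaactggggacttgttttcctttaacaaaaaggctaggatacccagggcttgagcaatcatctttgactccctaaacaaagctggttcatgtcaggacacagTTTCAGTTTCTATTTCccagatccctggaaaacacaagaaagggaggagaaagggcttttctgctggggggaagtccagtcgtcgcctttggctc
Isg15, chr4:156200769-156201068, minus strand: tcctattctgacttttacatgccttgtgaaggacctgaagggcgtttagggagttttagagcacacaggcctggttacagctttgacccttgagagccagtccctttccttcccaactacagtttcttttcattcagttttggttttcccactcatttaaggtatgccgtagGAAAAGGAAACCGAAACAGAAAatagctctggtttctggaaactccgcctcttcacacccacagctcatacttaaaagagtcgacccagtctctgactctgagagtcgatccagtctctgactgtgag
Oas1a, chr5:120907476-120907775, minus strand: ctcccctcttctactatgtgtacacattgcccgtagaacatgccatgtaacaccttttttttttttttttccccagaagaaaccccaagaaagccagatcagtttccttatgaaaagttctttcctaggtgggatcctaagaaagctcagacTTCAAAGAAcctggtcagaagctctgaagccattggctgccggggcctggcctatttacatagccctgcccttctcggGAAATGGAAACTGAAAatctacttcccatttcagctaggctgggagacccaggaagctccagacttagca
Xaf1, chr11:72301379-72301678, plus strand: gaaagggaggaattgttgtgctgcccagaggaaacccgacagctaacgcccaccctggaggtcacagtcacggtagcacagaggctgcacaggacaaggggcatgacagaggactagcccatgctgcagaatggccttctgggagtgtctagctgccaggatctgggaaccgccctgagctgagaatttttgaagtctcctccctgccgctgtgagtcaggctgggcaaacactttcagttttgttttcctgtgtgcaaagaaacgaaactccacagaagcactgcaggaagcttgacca
Samd9l, chr6:3399522-3399821, minus strand: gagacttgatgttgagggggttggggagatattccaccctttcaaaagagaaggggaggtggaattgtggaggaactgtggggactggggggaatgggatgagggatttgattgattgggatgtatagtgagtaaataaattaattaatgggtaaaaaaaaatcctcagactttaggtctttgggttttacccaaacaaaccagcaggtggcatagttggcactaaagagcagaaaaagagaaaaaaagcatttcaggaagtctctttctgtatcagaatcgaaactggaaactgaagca
In Isg15, 3 overlapping matches run together, beginning 78, 72 and 66 bases before the transcript start. Those of Oas1a begin 20 and 14 bases before the start, with the GAS match at 98 bases before it. A window was at hand for 31 of the 41 genes. The response element was found in 17 of these 31 (54.8%), against 3.99% of all 27025 genes with a window. The GAS motif was found in 8 (25.8%), against 9.55% of all genes, and both motifs together in 5 (16.1%), against 0.54%. Some matches of the 2 motifs can share bases. A match is a description of the letters and not a bound site.

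Levels differed widely between the 41 genes. Per kilobase of exon, Bst2, a membrane protein that tethers budding virus, had the highest group means, from 121 ± 11.1 CPM per kb in non-exercised tumours to 144 ± 22.6 on the normal diet (SD, n = 4). Iigp1, an immunity-related GTPase, came next at 61.6 to 93.7 CPM per kb. Trim25, a ubiquitin ligase that activates RIG-I, was at 15.3 to 18.4 CPM per kb, and Isg15 at 21.6 in exercised tumours, 22.3 in non-exercised tumours and 6.40 on the normal diet. The lowest was Oas3, at 0.244 ± 0.143 CPM per kb in exercised tumours and 0.101 ± 0.0621 on the normal diet. None of Bst2, Iigp1 and Trim25 passed the test of diet or of exercise described below.

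**Figure D1:**
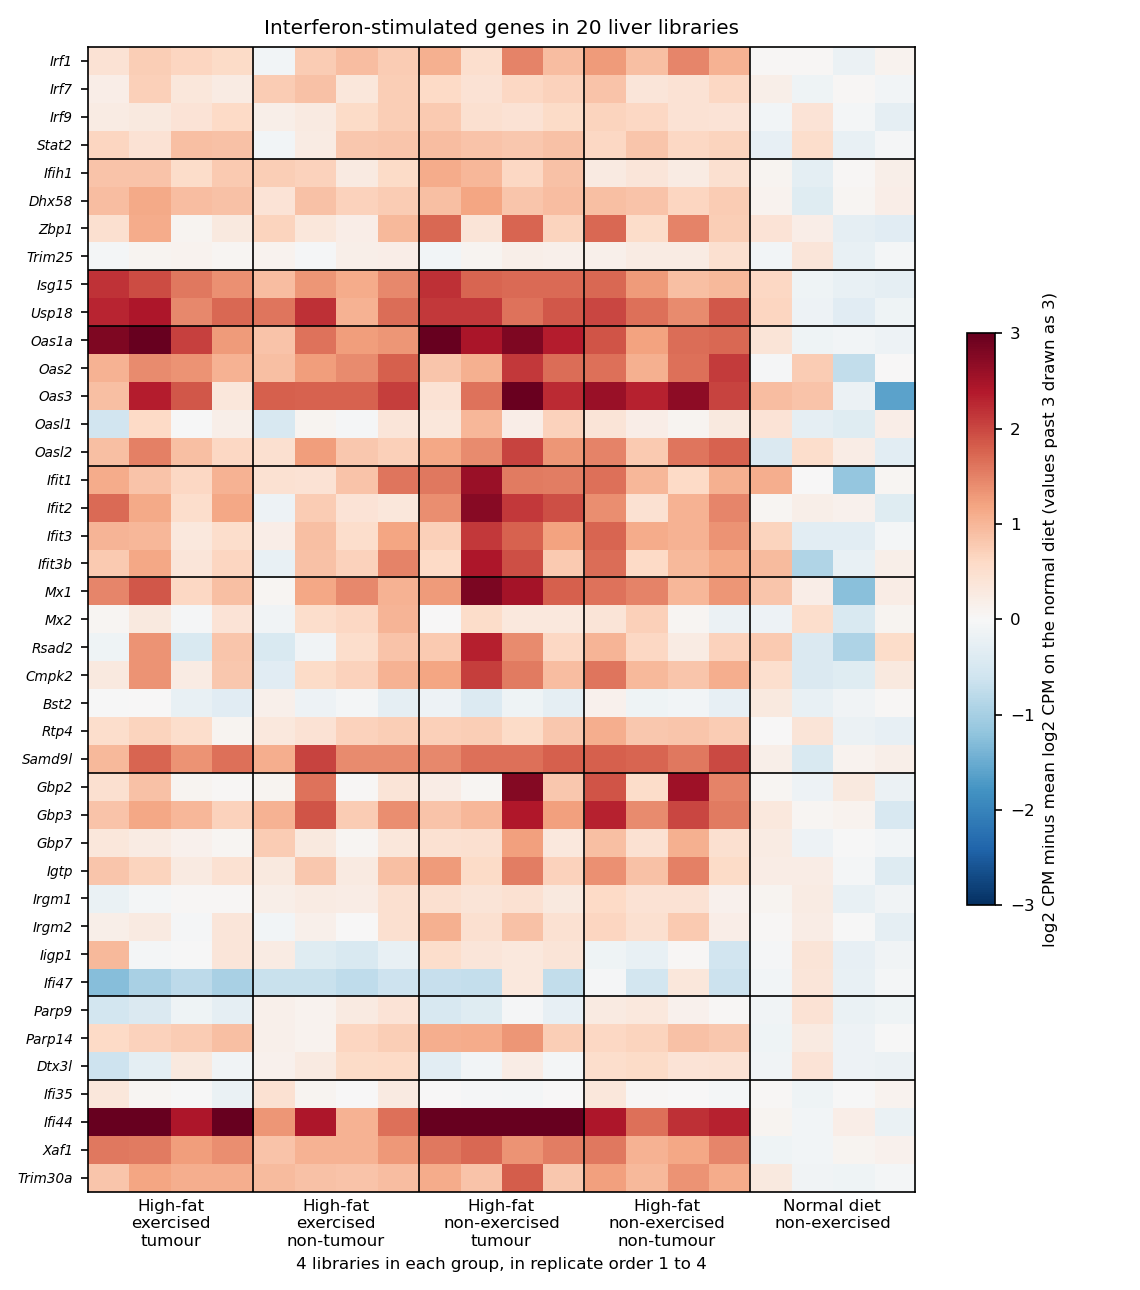
Each row is 1 of the 41 genes, grouped by role, and each column 1 of 20 libraries; colour is log2 CPM minus the gene's mean log2 CPM on the normal diet, with values past 3 drawn as 3. Red fills most rows of all 4 high-fat groups, deepest for Ifi44 and Oas1a in tumour pieces, while Bst2, Ifi35 and Trim25 stay pale and Ifi47 is blue in most high-fat libraries.

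For diet, high-fat non-tumour liver of mice that did not exercise was set against normal-diet liver, so that tumour bearing goes with diet here. Most interferon-stimulated genes rose: 28 of 41 passed as higher and 0 as lower, where 14% of all genes tested were higher and 11.9% lower. The 41 genes were chosen with earlier results of these data known, so this count describes them and is no independent test. A gene passed, here and below, at a Benjamini-Hochberg adjusted p under 0.05 over all 14428 genes in edgeR's quasi-likelihood test. The median log2 fold change of the 41 was 0.92, against 0.01 for all genes, and single genes ran from -0.22 (Iigp1) to 2.16 (Ifi44). In 26 genes all 4 high-fat libraries lay above all 4 of the normal diet. The share of all genes that did so is not given here, so this count has no background to be read against. Of the called genes, 20 kept their call whichever library was left out. The other 8 each lost it without at least 1 library: Irf9, Stat2, Zbp1, Mx1, Cmpk2, Gbp2, Irgm1 and Irgm2. Without normal-diet library 2, the one that stood apart, 27 were higher and 0 lower. With upper-quartile scaling, 2513 genes of the whole table were higher and 1140 lower, against 2025 and 1715, and 31 of the 41 were higher.

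All 4 transcription factors rose. Irf1, the factor that interferon gamma induces, had 39.8, 30.6, 45.2 and 33.7 CPM in non-exercised high-fat liver, against 16.7, 16.7, 14.5 and 17.5 CPM on the normal diet. Its 4 high-fat libraries all lay well above the normal-diet ones, which were nearly level (1.19 ± 0.20, log2 fold change ± SE, adjusted p = 0.000575). Irf7, which amplifies type I interferon production, had 45.1, 32.5, 33.6 and 38.8 CPM on the high-fat diet and 28.4, 23.0, 25.7 and 23.6 CPM on the normal diet. These groups did not overlap either (0.57 ± 0.13, adjusted p = 0.00427). Irf9 (0.52 ± 0.14, adjusted p = 0.0123) and Stat2 (0.65 ± 0.18, adjusted p = 0.0146), which form the factor that binds the response element, rose by less. For Irf9 the call was lost without normal-diet library 4 (adjusted p = 0.0507), and for Stat2 without library 1 (0.0524) or 3 (0.0518).

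Of 4 sensors of nucleic acid and their regulators, 2 rose. Dhx58, also named LGP2, a relative of the RNA sensor RIG-I, had 16.4, 15.8, 13.8 and 14.8 CPM on the high-fat diet, against 9.38, 6.86, 9.05 and 10.1 CPM on the normal diet. Again no high-fat library was as low as any normal-diet one (0.78 ± 0.12, adjusted p = 0.000361). Zbp1, a sensor of Z-form nucleic acid that can start necroptosis, had 15.7, 7.01, 13.3 and 7.88 CPM, against 6.29, 5.46, 3.95 and 3.75 CPM. High-fat libraries 1 and 3 stood well above the other pair, and the call (1.17 ± 0.34, adjusted p = 0.0168) was lost without high-fat library 1 (0.0604) or normal-diet library 3 (0.0516) or 4 (0.0538). Ifih1, the RNA sensor MDA5 (0.33 ± 0.12, adjusted p = 0.0532), and Trim25 (0.27 ± 0.11, adjusted p = 0.0779) did not pass.

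Isg15, a ubiquitin-like protein that is attached to other proteins, and Usp18, the protease that removes it and also dampens the type I interferon receptor, both rose. Usp18 had 13.8, 10.9, 9.12 and 12.4 CPM on the high-fat diet, against 5.36, 3.08, 2.69 and 3.11 CPM on the normal diet. The lowest high-fat library was well above the highest normal-diet one (1.69 ± 0.27, adjusted p = 0.000417). Isg15 had 14.3, 10.5, 8.18 and 8.51 CPM, against 6.64, 4.01, 3.72 and 3.62 CPM. Library 1 was the highest of each group, and the groups did not overlap (1.20 ± 0.23, adjusted p = 0.00143).

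The OAS family makes the second messenger that activates RNase L. Of its 5 listed members 4 rose: Oas1a (1.61 ± 0.35), Oas2 (1.57 ± 0.32), Oas3 (2.10 ± 0.51) and Oasl2 (1.40 ± 0.27). Oasl2, a ubiquitin-domain relative, had 10.0, 6.15, 10.8 and 12.0 CPM on the high-fat diet, against 2.62, 5.12, 4.12 and 2.86 CPM on the normal diet (adjusted p = 0.0015). Oas2 had 6.95, 4.65, 6.99 and 9.48 CPM, against 2.16, 3.78, 1.32 and 2.22 CPM (adjusted p = 0.00198). In both genes high-fat library 2 came closest to the normal diet without reaching it. Oasl1, which in mouse represses translation of Irf7, was at 11.7 CPM on average on the high-fat diet and 10.2 CPM on the normal diet (0.20 ± 0.23, adjusted p = 0.551). Oas1a belongs to a cluster of similar genes, so its reads may be under-counted and its value is uncertain.

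The 4 listed IFIT genes, whose proteins bind foreign RNA, lie within 1 stretch of chromosome 19 (34528094 to 34627409, GRCm39). Ifit3 had 18.5, 12.0, 11.3 and 14 CPM on the high-fat diet, against 8.80, 4.47, 4.47 and 5.34 CPM on the normal diet (1.27 ± 0.30, adjusted p = 0.00585). Ifit2 had 11.4, 5.94, 8.93 and 11.8 CPM, against 4.49, 4.82, 4.70 and 3.37 CPM (1.13 ± 0.29, adjusted p = 0.00959). Neither gene had overlapping groups. Ifit1 (0.92 ± 0.38, adjusted p = 0.083) and Ifit3b (0.99 ± 0.44, adjusted p = 0.104) had positive values of like size but did not pass. Normal-diet library 1, the highest of its group in 3 of the 4 genes, reached 10.0 CPM for Ifit1, within the high-fat range of 7.14 to 14.8 CPM. Ifit3 and Ifit3b are near-identical copies that share reads, and both values are uncertain.

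Of the 7 other antiviral effectors 4 rose. Samd9l, a growth-restraining antiviral protein, had 48.9, 47.2, 42.4 and 55.7 CPM on the high-fat diet, against 15.8, 10.2, 15.2 and 16 CPM on the normal diet. Every high-fat library lay far above every normal-diet one (1.76 ± 0.20, adjusted p = 2.94e-05). Rtp4, a negative regulator of interferon signalling in mouse, had 21.0, 17.4, 17.6 and 16.9 CPM, against 10.0, 13, 8.82 and 8.39 CPM (0.86 ± 0.14, adjusted p = 0.000552). Its exons share 13.9% of their length with a predicted gene on the same strand, so it may be under-counted. Mx1, a GTPase (1.20 ± 0.41, adjusted p = 0.0388), and Cmpk2, a mitochondrial nucleotide kinase (1.09 ± 0.33, adjusted p = 0.02), rose, but with weak calls. For these genes, 6 and 3 single libraries were each enough to end the call (adjusted p up to 0.115 and 0.0663). Mx1 was also a gene of few counts, at 1.64 to 2.52 CPM on the high-fat diet and 0.344 to 1.46 CPM on the normal diet. Mx2 (0.24 ± 0.24), Rsad2, the antiviral enzyme viperin (0.51 ± 0.46), and Bst2 (-0.09 ± 0.12) failed the threshold (adjusted p between 0.435 and 0.624).

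Guanylate-binding proteins (GBP) and immunity-related GTPases (IRG) attack the vacuoles of intracellular parasites, and they are the part of the set that interferon gamma governs most. Of 8 members 6 rose. Gbp3 had 21.3, 11.4, 17.1 and 12.6 CPM on the high-fat diet, against 5.30, 4.47, 4.58 and 3.05 CPM on the normal diet (1.84 ± 0.33, adjusted p = 0.000923). Igtp, also named Irgm3, had 45.0, 31.6, 49.4 and 25.6 CPM, against 20.3, 20.3, 16.5 and 13.2 CPM (1.11 ± 0.24, adjusted p = 0.00367). In both genes high-fat libraries 1 and 3 were the highest and the groups did not overlap. Gbp7 (0.74 ± 0.19, adjusted p = 0.00973), Irgm1 (0.40 ± 0.11, adjusted p = 0.0111) and Irgm2 (0.53 ± 0.16, adjusted p = 0.0196) rose by less. Gbp2 had 16.9, 6.79, 26.8 and 12.9 CPM, against 4.78, 4.13, 5.61 and 4.07 CPM. Its fold was large but so was its spread (1.77 ± 0.56, adjusted p = 0.0275), and without high-fat library 3 it was 1.39 with an adjusted p of 0.0993. Iigp1 (-0.22 ± 0.21, adjusted p = 0.444) and Ifi47, also an IRG (-0.19 ± 0.23, adjusted p = 0.575), lay on the other side of 0 and did not pass. GBP genes are similar copies in a cluster, Igtp and Irgm2 share 8.0% and 4.4% of their exon length with each other, and Gbp7 shares 11.3% with a predicted gene, so these values are uncertain.

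Non-exercised mouse 3 was the highest of its group in 6 of the 8 GBP and IRG genes in non-tumour liver, and in 4 of the other 33 members. It also had the highest level of Ptprc (CD45), a marker of all leukocytes, at 47.4 CPM, where the other 3 libraries held 18.2 to 31.9 CPM. With both pieces of this mouse left out, an alternative chosen after its values were seen, 28 members were called higher on the high-fat diet, of which 27 are among the 28 given above. The call of Irgm2 was lost (0.44, adjusted p = 0.0705), and Ifih1 gained one (0.36, adjusted p = 0.0457). The part of T, NK and other leukocytes in these GTPase levels was not tested.

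Of the 3 members that are PARP-family enzymes or their partner, Parp14, a mono-ADP-ribosyltransferase, was the 1 that passed. It had 37.2, 38.6, 45.2 and 42.8 CPM on the high-fat diet, against 22.3, 29.5, 22.1 and 24.3 CPM on the normal diet (0.74 ± 0.15, adjusted p = 0.0017), and the groups did not overlap. Parp9 (0.17 ± 0.13, adjusted p = 0.372) and Dtx3l, its ubiquitin ligase partner (0.46 ± 0.17, adjusted p = 0.0529), did not pass. For both, normal-diet library 2 stood far above the other 3, with 79.3 CPM of Parp9 and 70.3 CPM of Dtx3l.

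Of 4 other induced proteins 3 rose, and they held both the smallest p and the largest fold of the set. Xaf1, which promotes apoptosis, had 10.1, 6.95, 7.59 and 9.28 CPM on the high-fat diet, against 3.09, 3.20, 3.55 and 3.69 CPM on the normal diet (1.33 ± 0.14, adjusted p = 2.03e-05). Ifi44, a cytoplasmic protein of uncertain role, had 8.24, 4.87, 7.04 and 7.59 CPM, against 1.63, 1.45, 1.78 and 1.33 CPM (2.16 ± 0.31, adjusted p = 0.000223). Both genes were tightly level on the normal diet and above it in each high-fat library. Trim30a, a mouse TRIM protein with close relatives nearby, rose as well (1.16 ± 0.18, adjusted p = 0.000345) and is uncertain for shared reads. Ifi35, a scaffold that joins other induced proteins, stayed at 24.2 CPM on average, against 22.9 CPM on the normal diet (0.08 ± 0.11, adjusted p = 0.619).

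**Figure D2:**
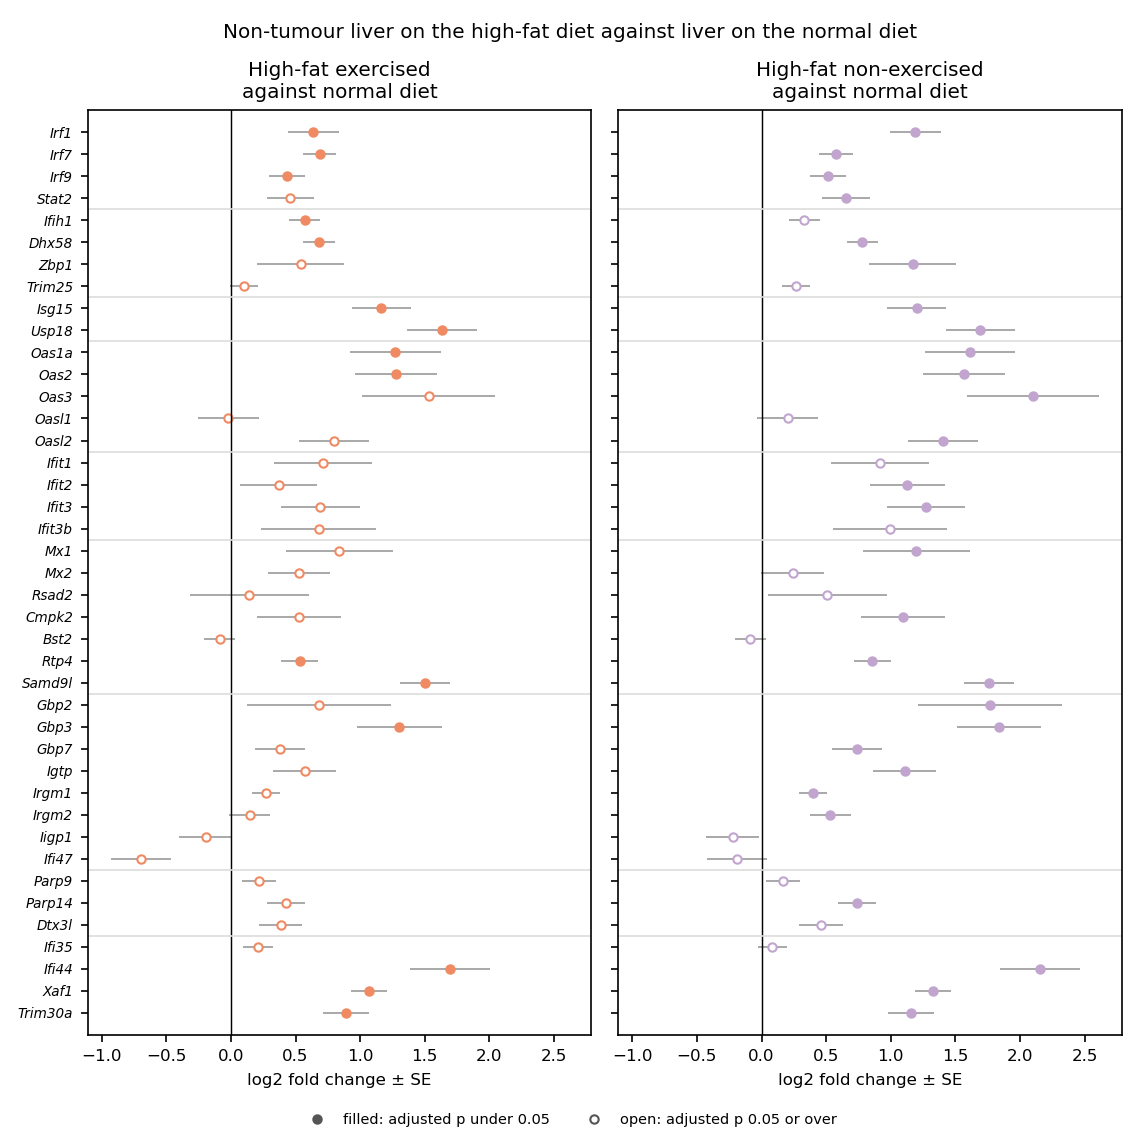
Log2 fold change ± SE of the 41 genes, grouped by role, in exercised (left) and non-exercised (right) high-fat non-tumour liver, each against the same 4 normal-diet livers; filled points passed at an adjusted p under 0.05. On the right 28 points are filled and on the left 15, all to the right of 0; Iigp1 and Ifi47 lie left of 0 in both panels.

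Called genes were found with and without promoter motifs. Of the 12 genes whose windows held the response element alone 8 rose, of 5 with both motifs 4, of 3 with the GAS motif alone 2, and of 11 with neither 7, among them Xaf1, Samd9l and Ifi44. The 10 genes without a window included 7 that rose.

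The wider pathway was read from lists of genes outside the 41. On the high-fat diet 14% of all genes tested were higher and 11.9% lower, the background for the counts of these lists and of the cell markers below. The interferons themselves were barely counted: Ifna1, Ifna4, Ifna5, Ifnb1, Ifnl2 and Ifnl3 had 0 reads in all 20 libraries, and Ifng had 22 reads in all, at most 6 in 1 library. These zeros hold at this depth only. Of 6 receptor chains 2 rose on the high-fat diet, Il10rb (0.91 ± 0.17), which serves interferon lambda, and Ifngr2 (0.44 ± 0.14). Among other JAK and IRF factors, Irf8 (0.88 ± 0.30) rose, and Irf2, which opposes Irf1, fell (-0.43 ± 0.15, adjusted p = 0.0474). Of 11 sensors and adaptors tested 7 rose, among them Ddx58, which encodes RIG-I (0.67 ± 0.11), the kinase Ikbke (0.79 ± 0.16) and the endosomal receptor Tlr3 (0.78 ± 0.14). All 3 enzymes of ISG15 attachment rose: the activating enzyme Uba7 (0.91 ± 0.14), the conjugating enzyme Ube2l6 (0.59 ± 0.09) and the ligase Herc6 (0.86 ± 0.14).

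Of 7 negative regulators 3 rose, including the nucleotide hydrolase Samhd1 (0.92 ± 0.18), and the phosphatase Ptpn2 fell (-0.39 ± 0.08). Of 12 genes of MHC class I presentation 6 rose, led by the peptide transporter Tap1 (1.11 ± 0.13) and the immunoproteasome subunits Psmb9 (1.36 ± 0.21) and Psmb8 (1.0 ± 0.20). Of 18 further induced genes 14 rose, with Ddx60, a helper of RIG-I (0.90 ± 0.13), Ifi27l2a (2.14 ± 0.37) and the antibody-binding ligase Trim21 (0.87 ± 0.15) among them.

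Markers of other cells moved on the same diet. Of 7 markers of monocyte-derived and lipid-associated macrophages 6 rose, and their sum was 37.5 to 101 CPM in non-exercised high-fat liver, against 19.6 to 27.0 CPM on the normal diet. Of 6 Kupffer cell markers 2 rose (sum 320 to 373, against 171 to 243 CPM), and Ptprc rose (1.18 ± 0.31). None of 6 T and NK cell markers tested passed, at sums of 3.32 to 15.2 CPM on the high-fat diet and 4.82 to 6.01 CPM on the normal diet. Of 2 plasmacytoid dendritic cell markers tested, Siglech and Tcf4, none passed (sum 26.2 to 28.4, against 22.3 to 27.0 CPM). Of 6 hepatocyte markers 3 fell, as did 3 of 5 sinusoidal endothelial and 1 of 4 B cell markers, and 2 of 5 stellate cell markers rose. No marker of conventional dendritic cells, neutrophils or cholangiocytes passed (0 of 4, 0 of 4 and 0 of 5 tested). Of all the listed markers, the highest count in any library was under 10 for Ly6g of neutrophils and for Cox6a2 and Klk1 of plasmacytoid dendritic cells. The part of these shifts in the interferon-stimulated genes was not tested.

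Exercise was compared within the high-fat diet, against mice that stayed in their cages. In tumours 0 of the 41 genes passed in either direction, where 0.0208% of all genes were higher and 0% lower. In non-tumour liver 0 passed as well, where 0.0139% of all genes were higher and 0% lower. The levels of most members were nevertheless below those of non-exercised mice: log2 fold changes were under 0 for 37 of 41 in tumours (47.0% of all genes) and 34 of 41 in non-tumour liver (52.0% of all genes). The medians were -0.34 in tumours, against 0.01 for all genes, and -0.29 in non-tumour liver, against -0.01.

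At an unadjusted p under 0.05, edgeR's quasi-likelihood test had 14 members lower and 0 higher in tumours, where 3.35% of all genes were lower, and 8 lower and 0 higher in non-tumour liver, where 4.35% were. DESeq2 called 1 member, Irgm1, lower in tumours (-0.47, adjusted p = 0.0152) and 0 in non-tumour liver. Of all 14428 genes it called 61 higher and 18 lower in tumours, and 95 higher and 22 lower in non-tumour liver. Without the 2 pieces of non-exercised mouse 3, the medians were -0.24 in tumours and -0.29 in non-tumour liver, and 0 passed. The 41 genes are not independent of each other, and no chance level was computed for their shared sign.

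In tumours the smallest p belonged to Irgm1, an IRG that guards host membranes. It had 49.9, 54.5, 58.7 and 58.0 CPM in exercised tumours, against 79.5, 75.0, 78.2 and 69.9 CPM in non-exercised ones. The groups were apart, with each exercised library under every non-exercised one (-0.45 ± 0.11, adjusted p = 0.151 in edgeR's test over all genes). Irgm2 had 47.3, 50.8, 41.1 and 54.5 CPM, against 88.9, 59.1, 77.6 and 58.0 CPM (-0.55 ± 0.16, adjusted p = 0.28). Ifit2 had 13.9, 9.41, 6.20 and 9.63 CPM, against 11.3, 28.6, 18.7 and 16.4 CPM (-0.94 ± 0.28, adjusted p = 0.321), and here exercised library 1 lay within the non-exercised range. The groups of Irgm2 did not overlap either, and the other genes of this kind, all lower with exercise, were Ifit1 and Ifi47. No share of all genes without overlap is given here, so these separations have no background to be read against.

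Across roles, the 4 IFIT genes had the lowest values in tumours (median -0.91), and non-exercised library 2 was the highest of its group in all 4. That library held 28.4 CPM of Ifit1, against 13.6 to 14.2 CPM in the other 3, and 7.20 to 10.2 CPM in exercised tumours. Without it, the value of Ifit2 was -0.68 (adjusted p = 0.696). The 8 GBP and IRG genes followed (median -0.53), the highest library there being mouse 3 for 5 of them. Isg15 (-0.05 ± 0.21), Usp18 (0.08 ± 0.25) and Bst2 (0.10 ± 0.12) had values near 0, and Dhx58 averaged 17.2 CPM in exercised and in non-exercised tumours.

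In non-tumour liver the smallest p was that of Irf1. It had 15.5, 27.6, 31.0 and 27.6 CPM in exercised mice, against 39.8, 30.6, 45.2 and 33.7 CPM in non-exercised mice, and exercised library 3 just passed the lowest non-exercised one (-0.55 ± 0.19, adjusted p = 0.402). Ifit2 had 3.89, 7.33, 5.74 and 5.47 CPM, against 11.4, 5.94, 8.93 and 11.8 CPM (-0.76 ± 0.29, adjusted p = 0.457). Irgm2 had 39.6, 47.1, 42.5 and 58.5 CPM, against 65.5, 58.6, 72.2 and 48.7 CPM (-0.38 ± 0.16, adjusted p = 0.526). For Ifit2 and Irgm2 the groups overlapped at the highest exercised and the lowest non-exercised library. Rtp4 and Trim30a had groups that did not overlap, both lower with exercise. Trim30a did so narrowly, with 11.3 CPM in its highest exercised and 11.4 CPM in its lowest non-exercised library. Here again no share of all genes without overlap is given, so there is no background to read this against. Exercised library 1 was the lowest of its group in 22 of 41 genes and library 4 the highest in 23.

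**Figure D3:**
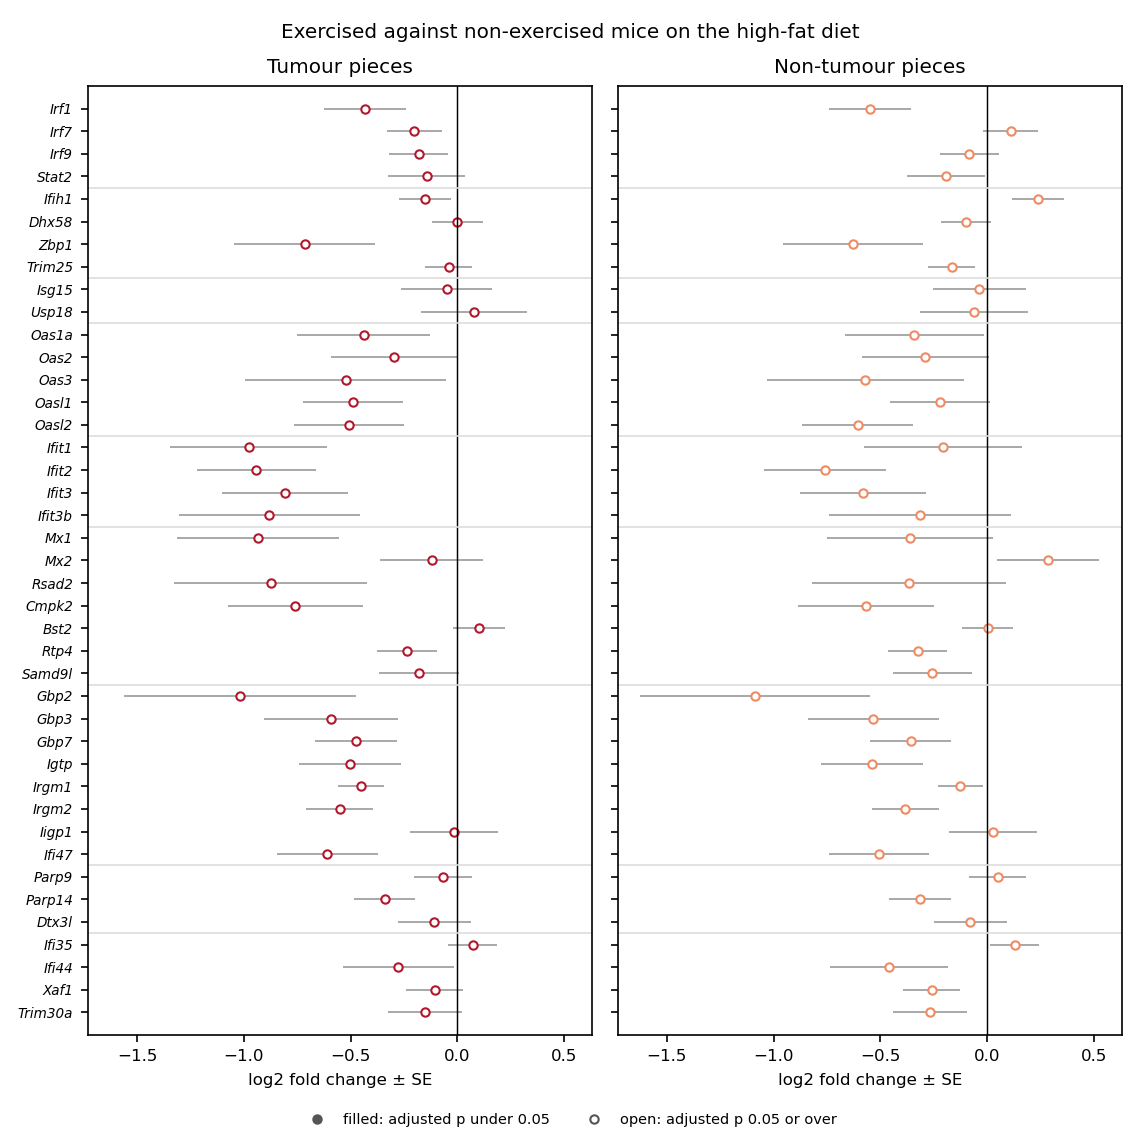
Log2 fold change ± SE of the 41 genes with exercise on the high-fat diet, in tumour (left) and non-tumour (right) pieces, grouped by role; every point is open, since none passed. The points lie left of 0 for 37 genes in tumours and 34 in non-tumour liver, lowest for Gbp2 in both, while Isg15, Usp18 and Bst2 sit near 0.

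Most markers of macrophages and of T and NK cells had values below 0 with exercise, and no marker passed. The 7 macrophage markers had a median log2 fold change of -0.46 in tumours and -1.15 in non-tumour liver, with 0 called, and the 6 tested T and NK cell markers -0.63 and -1.02, with 0 called. The macrophage marker sum was 86.6 to 166 CPM in exercised tumours, against 90.2 to 149 CPM in non-exercised ones, and 28.4 to 76.8 CPM in exercised non-tumour liver, against 37.5 to 101 CPM. Ptprc was at 17.2 to 28.5 CPM in exercised tumours, against 19.1 to 57.8 CPM, and at 18.8 to 22.3 CPM in exercised non-tumour liver, against 18.2 to 47.4 CPM. Other leukocyte markers went both ways: 4 of 6 Kupffer cell markers were above 0 in each tissue (median 0.16 in tumours and 0.21 in non-tumour liver). All 4 tested neutrophil markers were above 0 in tumours (median 0.10) and 1 of 4 in non-tumour liver (-0.13), while B cell markers had medians of -0.26 and -0.03. Of 4 tested conventional dendritic cell markers 2 were above 0 in tumours (median -0.17) and 0 in non-tumour liver (-0.72). Of 2 tested plasmacytoid dendritic cell markers 1 was above 0 in tumours (median -0.09) and 0 in non-tumour liver (-0.35). The part of leukocytes in the lower levels was not tested.

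In the pathway lists edgeR's test called 0 genes with exercise in either tissue, and each list is described first for tumours and then for non-tumour liver. Of 18 further induced genes, 14 and 16 had values below 0 (medians -0.30 and -0.40), as did 6 and 12 of 12 MHC class I genes and 2 and 6 of 6 receptors. Of 11 sensors and adaptors 9 and 7 were below 0, of 7 negative regulators 5 and 4, and of 3 ISG15 enzymes 2 and 1. The 2 most abundant genes of each list follow. Among receptors these were Ifngr1 (0.04 ± 0.18 and -0.18 ± 0.18) and Ifnar1 (0.02 ± 0.08 and -0.01 ± 0.08), and among JAK and IRF factors Jak1 (0.05 ± 0.11 and 0.04 ± 0.11) and Irf2 (0.29 ± 0.16 and 0.37 ± 0.15). The adaptor Mavs averaged 70.2 CPM in exercised tumours, against 64.6 CPM, and 83.8 CPM in exercised non-tumour liver, against 83.6 CPM. Ddx58 had -0.24 ± 0.11 and 0.07 ± 0.11. Of the negative regulators, Samhd1 had -0.36 ± 0.17 and -0.39 ± 0.17, and the phosphatase Ptpn1 -0.11 ± 0.15 and 0.04 ± 0.15. Of the ISG15 enzymes, Ube2l6 had 0.09 ± 0.09 and 0.15 ± 0.09, and Uba7 -0.37 ± 0.13 and -0.31 ± 0.14. The MHC class I light chain B2m had 0.18 ± 0.16 and -0.05 ± 0.16, and the heavy chain H2-K1 0.09 ± 0.14 and -0.19 ± 0.14. Of the further induced genes, Ly6e had 0.19 ± 0.20 and -0.29 ± 0.20, and Ifitm3, which blocks viral entry, 0.14 ± 0.16 and 0.19 ± 0.16. The difference of the exercise effect between tumour and non-tumour pieces also had 0 members called, with 0% of all genes called in either direction, 0 higher and 2 lower at an unadjusted p under 0.05, and 0 with DESeq2.

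Exercised high-fat liver was set against the normal diet as well, a comparison added after the data were seen, which shares its 4 normal-diet libraries with the diet comparison above. Here 15 of the 41 genes were higher and 0 lower, where 7.54% of all genes were higher and 6.69% lower, with a median of 0.57, against 0.01 for all genes. Samd9l had 30.2, 57.4, 37.4 and 37.5 CPM in exercised liver, against 15.8, 10.2, 15.2 and 16 CPM on the normal diet (1.51 ± 0.19, adjusted p = 0.000122). Xaf1 had 6.13, 6.93, 6.95 and 8.33 CPM, against 3.09, 3.20, 3.55 and 3.69 CPM (1.07 ± 0.14, adjusted p = 0.000139). Both genes were above the normal diet in all 4 exercised libraries. Usp18 (1.63 ± 0.27), Isg15 (1.16 ± 0.23), Irf7 (0.69 ± 0.13) and Dhx58 (0.68 ± 0.12) had values close to those without exercise, 1.69, 1.20, 0.57 and 0.78.

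Other members had smaller values in exercised than in non-exercised liver when each was set against the normal diet. They were 0.68 and 1.77 for Gbp2, 0.37 and 1.13 for Ifit2, 0.57 and 1.11 for Igtp, and 0.64 and 1.19 for Irf1, the first of each pair with exercise. No IFIT gene passed with exercise, and of the GBP and IRG genes Gbp3 alone did (1.30 ± 0.33, adjusted p = 0.0138), a call lost without exercised library 2 (adjusted p = 0.0556). The test of that difference is the exercise comparison itself, which called 0 members, so a call in one comparison and not in the other is no sign of a difference. Ifi47 was the 1 gene with all exercised libraries below all normal-diet ones, at 18.0 to 19.9 CPM, against 26.1 to 39.5 CPM (-0.70 ± 0.23, adjusted p = 0.0544). For this separation, too, no share of all genes is given here.

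Tumours were set against the non-tumour pieces of their own arm, all on the high-fat diet. The 41 genes did not move as a block: in exercised mice 6 were higher and 3 lower, where 18.6% of all genes were higher and 16% lower. In non-exercised mice 6 were higher and 2 lower, where 18.0% of all genes were higher and 17.8% lower. Medians were -0.02 and 0.05, against 0.01 and -0.01 for all genes. The share of members called was near or below that of all genes. In exercised mice the count of 6 fell to 2 or 3 without non-tumour library 1, 2 or 3 or tumour library 1, 2 or 4, and the count of 3 to 1 without non-tumour library 4 or tumour library 1. In non-exercised mice the count of 6 fell to 3 without tumour library 2. The count of 2 there was 0 without tumour library 1, 1 without tumour library 2 or 4 or non-tumour library 1 or 2, and 5 without tumour library 3. Fitting the compared groups alone, or with no filter on low counts, left 3 and 2 genes higher in exercised tumours.

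Ifi44 rose most in both arms. It had 18.9, 16.1, 8.25 and 16.2 CPM in exercised tumours, against 3.83, 8.21, 3.17 and 4.87 CPM in non-tumour liver of that arm (1.56 ± 0.28, adjusted p = 0.000584). In non-exercised mice it had 21.6, 18.8, 13 and 18.6 CPM in tumours, against 8.24, 4.87, 7.04 and 7.59 CPM (1.38 ± 0.27, adjusted p = 0.00094). Every tumour library lay above every non-tumour one within its arm, although exercised tumour library 3 (8.25 CPM) only just passed non-tumour library 2 (8.21 CPM). Xaf1 rose in exercised tumours (0.38 ± 0.13, adjusted p = 0.0364), where it had 10.2, 9.87, 8.0 and 8.90 CPM, against 6.13, 6.93, 6.95 and 8.33 CPM. That call was lost with the mouse as a block (adjusted p = 0.0749) and when any of 6 libraries was left out (adjusted p up to 0.113). In non-exercised mice Xaf1 did not pass (0.23 ± 0.13, adjusted p = 0.197).

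Oas1a had 9.43, 10.8, 5.55 and 3.26 CPM in exercised tumours, against 2.43, 4.13, 3.22 and 3.35 CPM (1.14 ± 0.32, adjusted p = 0.0115), with tumour library 4 inside the non-tumour range. Without tumour library 2 the call was lost (adjusted p = 0.0528). In non-exercised mice it had 15.9, 7.28, 9.28 and 6.87 CPM in tumours, against 4.93, 3.10, 4.26 and 4.40 CPM, with no overlap (1.24 ± 0.32, adjusted p = 0.00594). No other OAS gene passed in either arm. Ifih1 rose in non-exercised tumours, with 71.1, 65.4, 50.2 and 59.8 CPM, against 39.6, 42.0, 38.8 and 45.3 CPM in non-tumour liver (0.57 ± 0.12, adjusted p = 0.00164). In exercised mice its value was 0.18 ± 0.12 (adjusted p = 0.266), and the interaction test called no member.

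Isg15, Ifit2 and Iigp1 rose in both arms, each with a call that single libraries could end. Isg15 had 19.6, 16.8, 13 and 11.3 CPM in exercised tumours, against 8.26, 10.9, 9.42 and 11.8 CPM (0.59 ± 0.22, adjusted p = 0.0441). In non-exercised tumours it had 19.9, 14.7, 14.2 and 14.1 CPM, against 14.3, 10.5, 8.18 and 8.51 CPM (0.60 ± 0.22, adjusted p = 0.0378). Both pairs of groups overlapped. Ifit2 was higher by 0.80 ± 0.29 in exercised tumours (adjusted p = 0.0388) and by 0.98 ± 0.28 in non-exercised ones (adjusted p = 0.0109), and lost both calls with the mouse as a block (adjusted p = 0.155 and 0.0835). Iigp1 had 809.9, 400.0, 412.5 and 536.3 CPM in exercised tumours, against 487.8, 321.9, 302.4 and 352.7 CPM (0.56 ± 0.21, adjusted p = 0.0434). In non-exercised tumours it had 598.5, 534.3, 511.4 and 538.5 CPM, against 376.3, 357.1, 422.9 and 279.5 CPM, with no overlap (0.60 ± 0.21, adjusted p = 0.0294). Single libraries left out gave adjusted p of up to 0.159 for Isg15, 0.152 for Ifit2 and 0.234 for Iigp1 in exercised mice, and up to 0.12, 0.0544 and 0.0858 in non-exercised mice.

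Parp9 and Dtx3l, a divergent pair whose ends overlap on opposite strands of chromosome 16 (35746881 to 35792975, GRCm39), fell together in tumours. Parp9 had 39.9, 43.3, 54.0 and 48.6 CPM in exercised tumours, against 65.2, 63.3, 70.1 and 78.4 CPM (-0.58 ± 0.14, adjusted p = 0.00365), and 42.2, 45.5, 57.1 and 49.7 CPM in non-exercised tumours, against 70.3, 73.2, 63.6 and 60.5 CPM (-0.46 ± 0.13, adjusted p = 0.0129). In both arms every tumour library was below every non-tumour one. Dtx3l fell by 0.55 ± 0.17 (adjusted p = 0.0186) and by 0.52 ± 0.17 (adjusted p = 0.0229) on the log2 scale. Parp14, their neighbour, lay on the other side of 0 (0.31 ± 0.14 and 0.33 ± 0.14) and did not pass, although it did with the mouse as a block (0.33 and 0.32, adjusted p = 0.0487 and 0.0468). Irgm1 fell in exercised tumours, with 49.9, 54.5, 58.7 and 58.0 CPM, against 64.1, 67.8, 66.2 and 79.3 CPM (-0.33 ± 0.11, adjusted p = 0.0241), and averaged 75.7 CPM in non-exercised tumours, against 75.7 CPM. Without single libraries, the calls of Irgm1 and Dtx3l in exercised mice and of Dtx3l and Parp9 in non-exercised mice were lost (adjusted p up to 0.0852, 0.0682, 0.0993 and 0.0673).

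**Figure D4:**
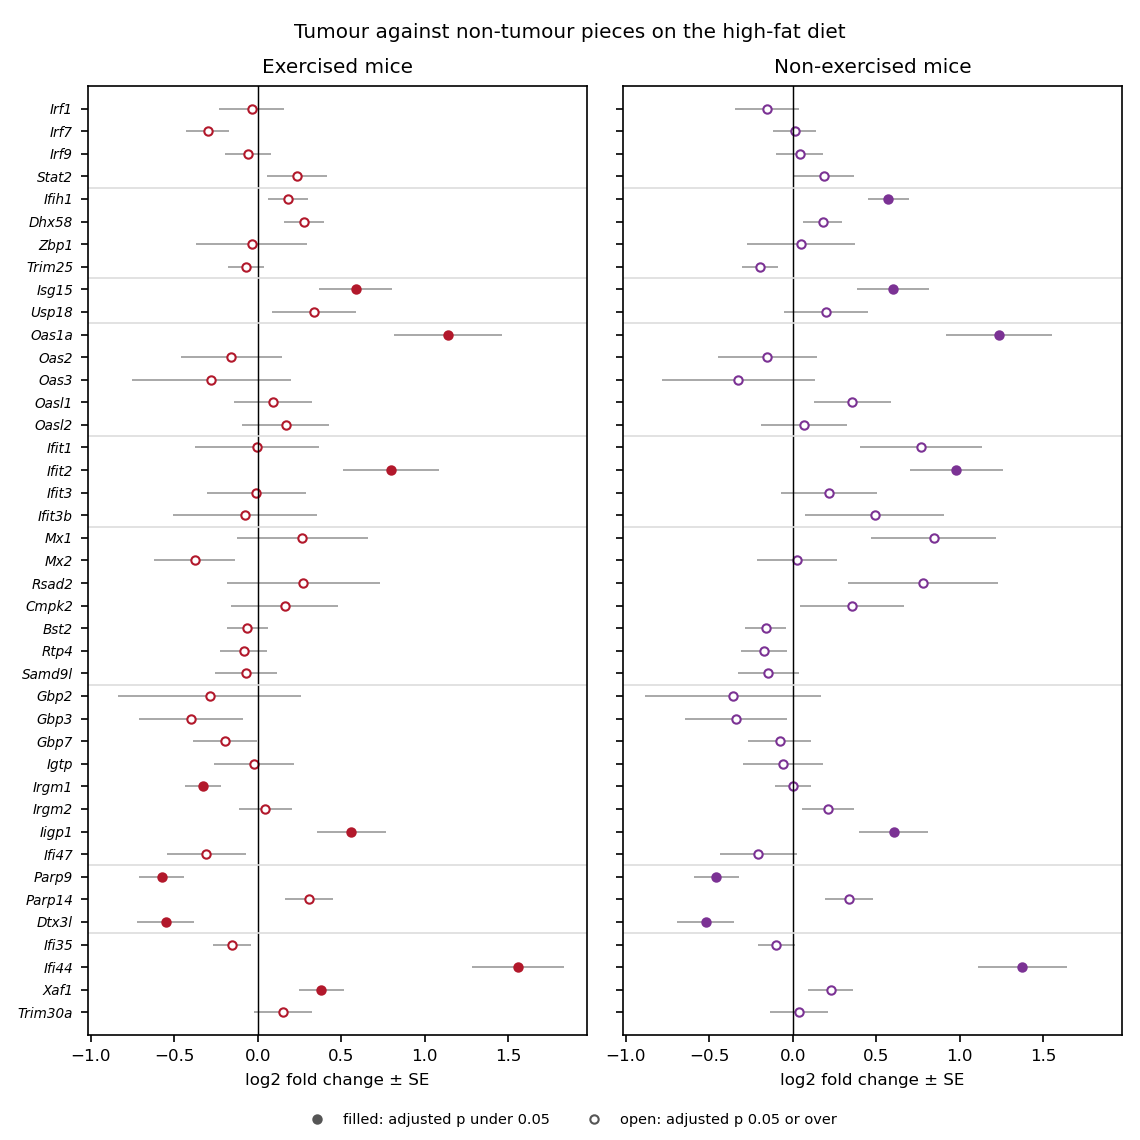
Log2 fold change ± SE of the 41 genes in tumour against non-tumour pieces, in exercised (left) and non-exercised (right) mice, grouped by role; filled points passed at an adjusted p under 0.05. Ifi44 and Oas1a lie farthest right and Parp9 and Dtx3l left of 0 in both panels, while most open points gather near 0.

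The remaining members did not pass in tumours of either arm in the test without the block: Irf1, Irf7, Irf9, Stat2, Dhx58, Zbp1, Trim25, Usp18, Oas2, Oas3, Oasl1, Oasl2, Ifit1, Ifit3, Ifit3b, Mx1, Mx2, Rsad2, Cmpk2, Bst2, Rtp4, Samd9l, Gbp2, Gbp3, Gbp7, Igtp, Irgm2, Ifi47, Parp14, Ifi35 and Trim30a. Among them Samd9l (-0.07 ± 0.19 and -0.15 ± 0.19 in exercised and non-exercised mice) and Trim30a (0.15 ± 0.17 and 0.04 ± 0.17), which rose clearly with diet, were close to 0. With the mouse as a block Dhx58 passed as higher in exercised tumours (0.28, adjusted p = 0.0378). With 1 library left out, Irf7 passed as lower in exercised tumours, in non-exercised ones Mx1 as higher and Gbp2, Gbp3 and Ifi47 as lower, and in both arms Parp14 as higher (adjusted p of 0.0139 to 0.045). Without non-exercised mouse 3, 5 members were higher and 3 lower in non-exercised tumours, the third being Gbp3 (-0.78, adjusted p = 0.0333).

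Of 6 interferon receptor chains 5 were higher in exercised and 4 in non-exercised tumours. Ifngr1, the ligand-binding chain for interferon gamma, was at 76.6 CPM on average in exercised tumours, against 22.2 CPM in non-tumour liver (1.78 ± 0.18), and at 74.6 CPM in non-exercised tumours, against 25.1 CPM (1.57 ± 0.18). Ifnlr1, the chain for interferon lambda, was rare but rose steeply (4.42 ± 0.66 and 3.49 ± 0.59). Ifnar1, a chain for type I interferon, was higher by 0.37 ± 0.08 and 0.33 ± 0.08. Of the other JAK and IRF factors, Jak1 (0.44 ± 0.11 and 0.43 ± 0.11) and Tyk2 (0.32 ± 0.09 and 0.28 ± 0.09) rose in both arms, while Irf2 fell in exercised (-0.43 ± 0.15) and Irf3 in non-exercised tumours (-0.32 ± 0.09).

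In the other lists fewer genes passed. Over all genes tested, 18.6% were higher and 16% lower in exercised tumours, and 18.0% and 17.8% in non-exercised ones. These shares are the background for the counts of the pathway and marker lists in tumours. Of 11 sensors and adaptors, 1 was higher in exercised tumours, Ikbke (0.59 ± 0.16), and in non-exercised tumours 3 were higher and 1 lower, led by Ddx58 (0.58 ± 0.11), Ikbke (0.60 ± 0.16) and, lower, Mavs (-0.37 ± 0.12). Of 7 negative regulators, Ptpn2 rose in exercised (0.29 ± 0.08) and Adar, an RNA-editing enzyme, in non-exercised tumours (0.33 ± 0.10). Of the 3 ISG15 enzymes none passed in exercised tumours, and Ube2l6 rose in non-exercised ones (0.27 ± 0.09). Of 12 MHC class I genes 4 rose in exercised tumours, and 3 rose and 2 fell in non-exercised ones. They included the class I transactivator Nlrc5 (0.64 ± 0.16 and 0.54 ± 0.16) and Tap1 (0.46 ± 0.13 and 0.36 ± 0.13). Of 18 further induced genes 4 rose in exercised and 3 in non-exercised tumours, among them Ly6e (1.07 ± 0.21 and 0.58 ± 0.20) and the chemokine Cxcl11 (1.31 ± 0.31 and 1.18 ± 0.30).

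Kupffer cell markers were lower in the same tumours, with 4 of 6 called in exercised tumours (sum 101 to 269, against 325 to 446 CPM) and 3 of 6 in non-exercised ones (81.3 to 418, against 320 to 373 CPM). Non-exercised mouse 3 supplied the highest of these tumour sums, 418 CPM. The hepatocyte marker sum was 124699 to 225645 CPM in exercised tumours, against 69274 to 86287 CPM, and 98277 to 211884 CPM in non-exercised tumours, against 50578 to 76154 CPM, with 3 of 6 markers called higher and 1 lower in each arm. The cholangiocyte marker sum was 103 to 1448 CPM in exercised tumours, against 41.8 to 120 CPM, with 2 of 5 called higher. In non-exercised tumours it was 371 to 1467 CPM, against 45.2 to 179 CPM, with 2 called higher and 1 lower. The macrophage marker sum was 86.6 to 166 CPM in exercised tumours, against 28.4 to 76.8 CPM, and 90.2 to 149 CPM in non-exercised tumours, against 37.5 to 101 CPM, with 1 of 7 called higher in each arm. The sum of plasmacytoid dendritic cell markers was 33.0 to 45.3 CPM in exercised tumours, against 22.1 to 28.3 CPM, and 33.4 to 39.9 CPM in non-exercised tumours, against 26.2 to 28.4 CPM, with 1 of 2 tested called higher in each arm. Ccr9, Cox6a2 and Klk1 of that list had 109, 30 and 22 reads in all 20 libraries. That sum is thus mainly of Siglech and Tcf4, the 2 tested. The part of these shifts in the levels of the 41 genes was not tested.

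**Figure D5:**
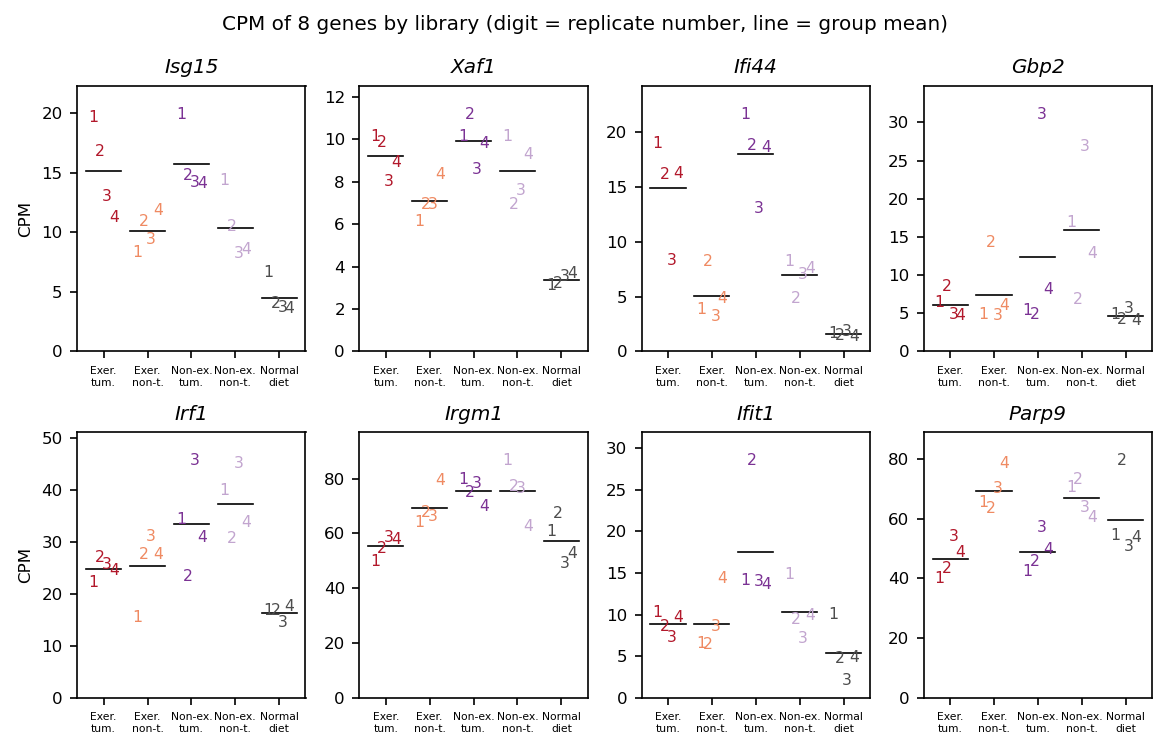
CPM of 8 genes in each of the 20 libraries, in 5 groups of 4; digits are replicate numbers, which mark the same mouse within an arm, and lines are group means. Isg15, Xaf1 and Ifi44 are above the normal diet in every high-fat library, Gbp2 is highest in non-exercised mouse 3, Irgm1 is lower in exercised than in non-exercised tumours, Ifit1 is highest in non-exercised tumour library 2, and Parp9 is lower in tumours of both arms.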

How the data were processed

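Gene-level read counts of 20 liver libraries were used as deposited, 1 file a library and none pooled. The authors made these counts with featureCounts 2.0.5 over exons at strand setting 2, with the GENCODE M27 annotation, per the file headers. Reads had been trimmed with Trim Galore 0.6.10 and aligned to GRCm39 with STAR 2.7.11a, per the submitters' processing notes. Per the labels' protocols, RNAiso Plus served for extraction and the TruSeq Stranded mRNA kit for the libraries. The headers record no option for reads that map to several places or overlap several genes, so copies of a gene family can be under-counted.

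Genes were kept by edgeR's filter (a count of 10 in a group's number of libraries and 15 in all), scaled by TMM and tested over all 14428 kept genes with edgeR 4.0.16 (glmQLFit and glmQLFTest) in R 4.3.3. All 5 groups entered 1 fit, with 15 residual degrees of freedom, and p-values were adjusted by Benjamini and Hochberg, with a threshold of 0.05. Of 55359 identifiers 52083 had a mouse symbol, and 135 shared one. The kept genes held 99.9% of the counts. CPM are scaled by TMM and log2 fold changes are edgeR's. Standard errors were computed from its test, as the absolute log2 fold change over the square root of the F statistic. No pair of libraries of a group was alike within sampling noise (chi-square per gene at least 9.16). The procedure was also run on simulated counts with known changes, the outcome of which is not given here. Alternatives were other scalings (RLE, upper quartile), other filters, DESeq2 1.42.0, fits of the compared groups alone, a replicate block and leaving out each library.

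The mouse number in the titles was read as pairing tumour with non-tumour pieces within each arm. Same-numbered pieces deviated from their group means with r of 0.075 to 0.441 in exercised and -0.083 to 0.213 in non-exercised mice. In 2 of 4 non-exercised mice the tumour piece correlated best with its own number. Between arms and diets an equal number marks different mice, yet same-numbered tumours of the 2 arms had r of 0.028 to 0.573, so the pairing rests on the titles.

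The 41 genes and the lists of pathway genes and cell markers were chosen with earlier results of these data known, and 1 pathway gene is not reported here. In each comparison the genes given by library are the called ones of smallest p in each role, up to 2 a role, or the 3 of smallest p where none was called. Up to 3 called genes of a pathway list are named by smallest p, or the 2 of highest level. Promoter windows came from RefSeq on GRCm38.p6, a different build from that of the counts, and were matched by symbol. Python 3.11.15, pandas 2.3.3, numpy 2.4.6 and matplotlib 3.10.9 served for summaries and figures.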

Additional observations from a re-analysis of the deposited data

Results flagged for a closer look

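Within groups of 4 libraries, the highest or lowest library was tested for a gap to its nearest neighbour that, as a share of the group's range, passed Dixon's critical value, as chance does in about 1 in 20 groups. It was passed in 15 of 205 sets of 1 gene in 1 group. Of these 15, 4 fell on tumour library 3 of the non-exercised mice, the mouse with high T and NK cell and neutrophil markers, all of them GTPases: Gbp2 at 31.1 CPM (next 8.06), Gbp3 at 22.7 CPM (next 10.1), Gbp7 at 29.4 CPM (next 17.5) and Ifi47 at 38.1 CPM (next 18.9). In the same group, library 1 had 19.9 CPM of Isg15 (next 14.7) and library 2 had 28.4 CPM of Ifit1 (next 14.2). In exercised tumours, library 2 had 19.4 CPM of Dhx58 (next 16.7). In exercised non-tumour liver, library 2 had 14.2 CPM of Gbp2 (next 6.01) and library 4 had 2.44 CPM of Oas3, with the other 3 within a narrow range up to 2.0 CPM.

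On the normal diet library 1 was set apart 3 times, with Isg15 at 6.64 CPM (next 4.01), Usp18 at 5.36 CPM (next 3.11) and Oas1a at 1.75 CPM (next 1.26). Library 2, which stood apart over all genes, was so another 3 times, with Parp9 at 79.3 CPM (next 54.4) and Dtx3l at 70.3 CPM (next 49.2) high and Samd9l at 10.2 CPM (next 15.2) low. The source of these single-library values was not tested.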

How the results depend on the processing

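Across the alternatives no named value changed sign with a call. On the high-fat diet 28 of the 41 genes were called higher. The count over the 41 was 22 to 28 with 1 library left out and 25 to 32 under the other settings. The 32 came with the replicate block. With exercise, 0 genes were called in either tissue under every setting except DESeq2, which called 1 lower in tumours, Irgm1. In exercised tumours against non-tumour pieces, the count of 6 called higher became 2 with no filter on low counts and 3 with the compared groups alone, and 2 to 6 with 1 library left out, while the count of 3 called lower became 1 to 4. In non-exercised mice the count of 6 called higher became 3 to 7 and that of 2 called lower 0 to 5 with 1 library left out; the 3 came without tumour library 2 and the 0 without tumour library 1. In exercised liver against the normal diet, 11 to 18 were called higher with 1 library left out, and Ifi47 became the 1 gene called lower with the compared groups alone, with DESeq2 and with the replicate block. The replicate block, with the mouse number as a term, pairs pieces read as 1 mouse where tumour is set against non-tumour. In the diet and exercise comparisons, and in exercised liver against the normal diet, it joined different mice that carry an equal number. Its counts there, such as 32 higher with diet and 0 with exercise, are therefore no check on pairing. With the block, tumour counts were again 6 and 3 in exercised and 6 and 2 in non-exercised mice. Ifit2 lost its call in both arms and Xaf1 in exercised mice, while Parp14 gained one in both arms and Dhx58 in exercised mice. With no filter on low counts Mx1, Cmpk2 and Gbp2 lost their calls with diet (adjusted p 0.0504, 0.06 and 0.0776). Limits are set by 4 libraries a group and by depth for genes of few CPM, such as Oas3, Mx1 and the interferons.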
